A study of Mus musculus with 9 samples.

Results

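The oligosaccharyltransferase (OST) complex is described here through the genes of 10 of its subunits, Ost4, Ostc, Dad1, Rpn1, Rpn2, Ddost, Stt3a, Stt3b, Tusc3 and Magt1, out of 43548 Ensembl gene identifiers in the expression table. The genes were taken by name and not by a rule on their values, though earlier results of these data were known. All 10 were measured and tested. They were divided by the size of the protein they encode into 3 short subunits (Ost4, Ostc and Dad1, under 200 residues) and 7 long subunits. The study had singled out Ost4 and Ostc on these same samples, so their position in the cranial vault comparison is not independent evidence.

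OST is the enzyme of the endoplasmic reticulum (ER) that transfers a preassembled oligosaccharide from the lipid dolichol to asparagine residues of proteins entering the secretory pathway, the first step of N-linked glycosylation. Mammalian cells hold a pair of OST complexes. The form built on STT3A sits at the translocon and glycosylates proteins as they are made, and the form built on STT3B acts on sites that the first form skipped. Cells that secrete much matrix, such as osteoblasts and chondrocytes, send a large load of glycoproteins through this step.

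Gene expression was measured by RNAseq in tissue of E14.5 mouse embryos of mixed strain, in 3 groups. The MCAGF8 cranial vault came from embryos with Msx2-Cre, a Cre driver active in the surface ectoderm, and the CAGF8 allele from which Cre releases Fgf8b. The control vault and the control base of the skull, the latter a cartilage sample, came from embryos that the labels call wildtype and the study describes as lacking Cre. The study bred Cre mice to mice homozygous for the allele and states that every offspring inherits it. The controls would thus carry the allele without the Cre that releases Fgf8b. The skin, where the allele is expressed, had been peeled away, each library was a pool of 3 tissue samples (9 per group), and the base was dissected from the control embryos that had given the vault tissue, with no statement of which pools match.

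The values are FPKM, fragments scaled by transcript length and by the total mapped, which allow levels of different genes to be compared per length. Every SD is the spread between the 3 pools of a group. In the main fit, standard errors and p-values rest on the spread of each gene pooled over all 9 libraries and moderated across genes. The group outside a comparison therefore also enters its errors. The read depth is unknown. The summed FPKM of a library ran from 847561 to 1041401 in the MCAGF8 vault, from 929728 to 1131826 in the control vault and from 793249 to 1315981 in the control base. Differences were tested with limma on log2(FPKM + 1) over the 18714 genes whose FPKM averaged 0.5 or more. Called genes are those with p under 0.05 before and under 0.1 after Benjamini-Hochberg adjustment over all of them. The 3 comparisons share libraries and are not independent of each other.

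Marker genes of other cell types moved between the groups as well. The summed FPKM of 7 osteoblast markers ran from 3822 to 6677 in the control vault, from 2225 to 2913 in the MCAGF8 vault and from 887 to 2110 in the control base, and 3 of the 7 were called lower in the MCAGF8 vault than in the control vault. For 6 skeletal muscle markers the sums were 989 to 6086, 21.0 to 242 and 1816 to 11800, with 5 of 6 called lower in the MCAGF8 vault, and for 6 epidermis markers 9.34 to 83.7, 344 to 861 and 46.3 to 598, with 1 called higher. Of the other marker lists, 1 of 4 measured neuron genes was called lower, and 0 of 6 chondrocyte, 0 of 5 erythroid, 0 of 5 macrophage and 0 of 5 endothelial genes were called by limma in the vault comparison. These counts stand beside 0.604% of all tested genes called in that comparison, so 0 in such a short list says little. None of the marker genes was at 0 in every library. The 6 chondrocyte markers summed to 443, 5469 and 678 FPKM in control base replicates 1, 2 and 3, against 895 to 1223 in the control vault and 1261 to 2443 in the MCAGF8 vault, so replicates 1 and 3 of the cartilage sample held less of these markers than the control vault. The part of these cell types in the results was not tested, and in such bulk tissue fewer cells of a type and less RNA per cell cannot be told apart.

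Ostc was the most abundant subunit in each group and Magt1 the least. In the control vault Ostc measured 583 ± 92.8 FPKM (SD, n = 3), above the range of every other subunit. Dad1 (321 ± 53.0), Ddost (305 ± 45.5) and Rpn2 (294 ± 43.9) followed with overlapping libraries, then Stt3a (247 ± 20.4), Ost4 (221 ± 32.9) and Rpn1 (187 ± 27.6), of which each overlapped the next. Tusc3 (112 ± 15.9), Stt3b (80.5 ± 3.69) and Magt1 (56.2 ± 5.63, SD and n = 3 throughout) stood apart from each other and below the rest. In the MCAGF8 vault Ostc had the highest mean, 337 ± 43.3 FPKM (SD, n = 3), above every library of Rpn2 but overlapping Ddost and Dad1, and Ost4 stood below Rpn1 with overlapping libraries. In the control base only the place of Ostc above Dad1 was free of overlap between neighbours.

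**Figure D1:**
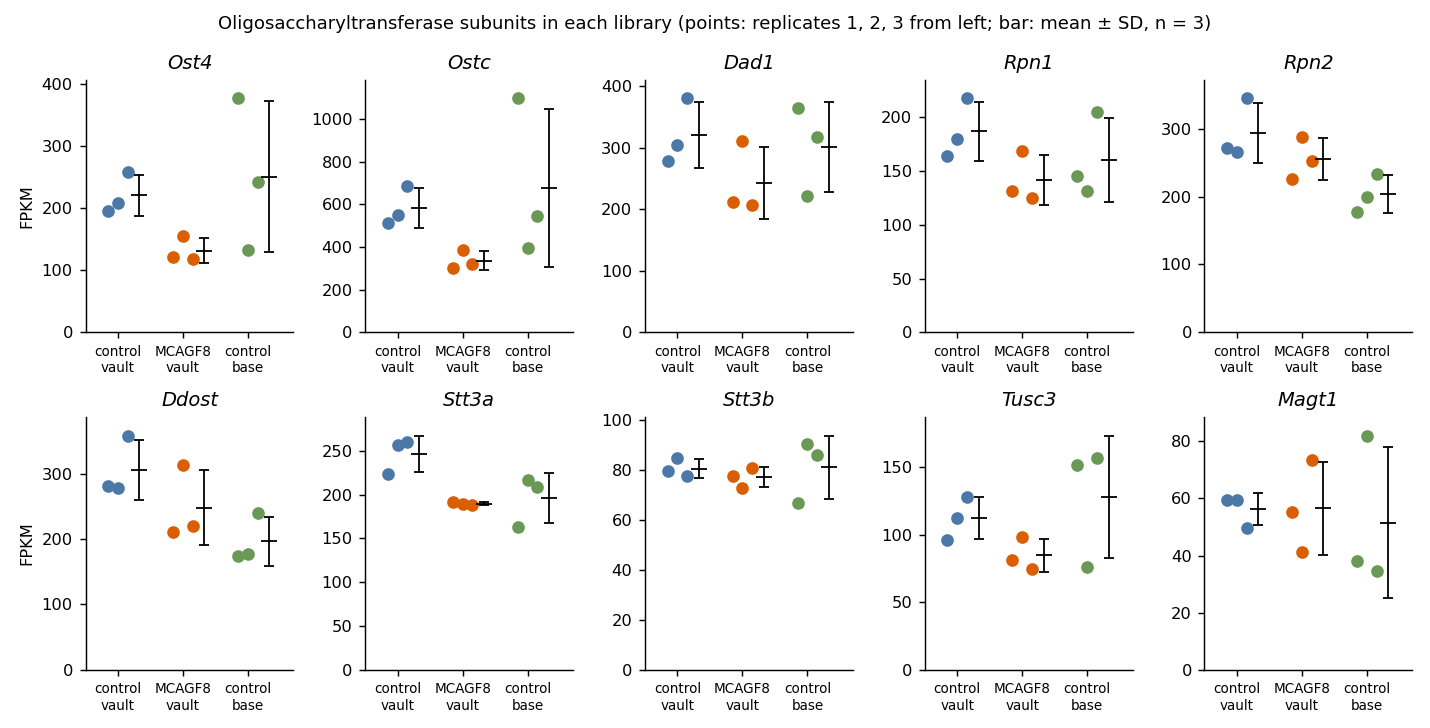
FPKM of the 10 subunits in each of the 9 libraries. Each panel is 1 gene, points are the libraries of the control vault, MCAGF8 vault and control base, and the bar beside each group is the mean with its SD (n = 3). The MCAGF8 points lie below all control vault points for Ost4, Ostc and Stt3a, and control base replicates 1 and 2 lie far apart for Ost4, Ostc and Tusc3.

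In the vault comparison, which asks what changes in the tissue under ectoderm that expresses Fgf8b, all 10 subunits had a log2 difference below 0 and 0 were called, where 0.604% of all tested genes were called (113 genes). At an unadjusted p under 0.05 there were also 0 of 10 in the main fit, beside 6.34% of all genes. Ost4 and Ostc lay just above that limit. Both were under it with the length trend described below removed, with the length slope as covariate and after quantile normalization. So were Rpn1 with the trend removed and Stt3a with the covariate. These fits called 0 subunits. Their shares of all genes under the limit are not given, so whether the subunits stood out from other genes there cannot be told. Ost4, Ostc and Stt3a were lower in every MCAGF8 library than in every control vault library, 3 of 10 beside 9.35% of all genes. The median log2 difference was -0.74 over the short subunits and -0.31 over the long ones, and over all genes it was -0.01, with 51.5% of genes below 0. In the main fit the median of the short subunits is the value of Ost4 in each comparison, a gene the study had singled out. When each library was rescaled to the same FPKM sum, the median of all genes moved by 0.14 to 0.13, 32.8% of genes were below 0, Stt3b and Magt1 lay above 0 and the median of the long subunits was -0.14. After quantile normalization Rpn2 and Magt1 lay above 0 and the median of the long subunits was -0.12. Magt1 was also above 0 without control vault replicate 1, without control vault replicate 2 and without MCAGF8 vault replicate 2.

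Against the control base, the cartilage sample, 0 of 10 subunits were called in the MCAGF8 vault, with 8.39% of all genes called (1571 genes). Replicates 1 and 3 of that sample held less summed chondrocyte marker FPKM than every control vault library, as given above. Ost4 and Ostc were at an unadjusted p under 0.05, 2 of 10 beside 19.6% of all genes, and Ostc was lower in every MCAGF8 library, 1 of 10 beside 13.0%. The median of the short subunits was -0.81. That of the long ones was -0.04, and it was above 0 after rescaling to a common sum (0.18), to a common median (0.07) and quantile normalization (0.12), settings that moved the median of all genes from -0.07 to 0.11, 0.02 and 0.08. Of the calls among all genes 64.5% were lower in the MCAGF8 vault, against 41.3% after quantile normalization, 51.5% after either rescaling and 44.0% with the length trend described below removed. In the control base against the control vault 0 of 10 were called, beside 3.06% of all genes (573 genes). Rpn2 and Ddost were at an unadjusted p under 0.05 (2 of 10, beside 12.8%), and both, with Stt3a, were lower in every base library than in every vault library, 3 of 10 beside 6.69%. The medians were 0.07 for the short subunits, which became -0.04 after rescaling to a common median, and -0.24 for the long ones. Of the calls among all genes 39.4% were lower in the base, against 62.3% after quantile normalization and 57.4% with the length trend removed. The unmoderated linear model called 0 subunits in all 3 comparisons. Of all 18714 genes tested it called 0 in the vault comparison, 869 against the base and 257 between the control tissues.

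Ost4 (ENSMUSG00000038803, chromosome 5 from 30905885 to 30907788 on the minus strand, coordinates from GENCODE M21 on GRCm38 here and below) encodes a tiny membrane protein that holds the catalytic subunit in the complex. Its whole coding sequence is shown because it is so short, 114 bases for 37 residues in a transcript of 576 bases in 2 exons. Capitals mark the start and the stop codon.
Ost4: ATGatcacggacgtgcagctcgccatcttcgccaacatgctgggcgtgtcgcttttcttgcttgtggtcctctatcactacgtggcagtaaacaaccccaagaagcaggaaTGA
The coding sequence fills 19.8% of the transcript.

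Ost4 measured 195, 209 and 258 FPKM in control vault replicates 1, 2 and 3 and 121, 156 and 119 in those of the MCAGF8 vault. The highest MCAGF8 library lay below the lowest control vault library. In the control base it measured 377, 133 and 242 FPKM, and replicate 2 of the base lay within the MCAGF8 range. The mean of the MCAGF8 vault was 0.597 of that of the control vault, a log2 difference of -0.74 (standard error, SE, 0.34, 95% interval -1.49 to 0.01, adjusted p = 0.802 from limma). Fitted to the 6 vault libraries alone, the adjusted p was 0.132, and over 23 alternative fits it ran from 0.132 to 1.00 with 0 calls. Against the base the log2 difference was -0.81 (SE 0.34, adjusted p = 0.223). It was -0.46 without control base replicate 1 and -1.20 without replicate 2, and the second of these passed the threshold (adjusted p = 0.0133).

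The Ost4 transcript overlaps Agbl5, a gene on the opposite strand that encodes an enzyme acting on tubulin tails. A stretch of 251 bases, 43.6% of the Ost4 transcript, was identical to a transcript of Agbl5. The library kit keeps the strand, but whether the FPKM were derived with it is not stated, and without it reads of this stretch cannot be told apart. Agbl5 measured 23.2 ± 3.69 FPKM in the control vault, 33.1 ± 2.47 in the MCAGF8 vault and 31.8 ± 10.5 in the control base (SD, n = 3 each). The mean of Ost4 was 9.50, 3.99 and 7.89 times that of Agbl5 in these groups. Its log2 difference in the vault comparison was 0.50 (adjusted p = 0.870, limma), in the other direction from that of Ost4.

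Ostc (ENSMUSG00000041084, chromosome 3 from 130695912 to 130709444, minus strand) encodes the subunit that joins the STT3A complex to the translocon. Its transcript has 1067 bases and codes for 149 residues. Ostc measured 513, 548 and 688 FPKM in the control vault, 304, 386 and 321 in the MCAGF8 vault and 1097, 394 and 545 in the control base. Every MCAGF8 library was below every control library of either tissue. Replicate 1 of the base was the highest of the 9 libraries, as it was for Ost4. The mean in the MCAGF8 vault was 0.578 of that in the control vault, a log2 difference of -0.79 (SE 0.35, 95% interval -1.57 to 0.00, adjusted p = 0.786, limma), and the adjusted p ran from 0.130 to 1.00 over 23 alternative fits. Against the base the log2 difference was -0.88 (SE 0.35, adjusted p = 0.205). It was -0.46 without control base replicate 1, and -1.20 without replicate 2 (adjusted p = 0.0281).

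Dad1 (ENSMUSG00000022174, chromosome 14 from 54235479 to 54254104, minus strand), the defender against cell death, is a small subunit common to both complexes, with 113 residues and a transcript of 878 bases. It measured 279, 304 and 380.5 FPKM in the control vault, 212, 310.6 and 207 in the MCAGF8 vault and 364, 222 and 318 in the control base. MCAGF8 replicate 2 lay within the control vault range and the groups overlapped. The log2 difference in the vault comparison was -0.41 (SE 0.26, adjusted p = 0.969, limma). It was smaller than that of the other short subunits, and the difference between them was not tested.

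Stt3a and Stt3b encode the catalytic subunits. Their proteins have 705 and 823 residues and are identical at 61.5% of 702 aligned positions. Both keep the catalytic motif of tryptophan, tryptophan, aspartate, tyrosine and glycine. The coding stretches around it are shown to place the active site shared by these subunits, at residues 525 to 529 of STT3A and 601 to 605 of STT3B, with the codons of the motif in capitals.
Stt3a: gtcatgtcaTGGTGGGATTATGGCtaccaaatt
Stt3b: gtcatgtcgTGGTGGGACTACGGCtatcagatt

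Stt3a (ENSMUSG00000032116, chromosome 9 from 36729344 to 36767679, minus strand) measured 223, 256 and 260.5 FPKM in the control vault, 192, 189 and 188 in the MCAGF8 vault and 164, 216 and 208 in the control base. The control vault stood above both other groups without overlap. The 3 MCAGF8 libraries differed by little, with an SD of 1.71 FPKM around a mean of 190. The log2 difference of the MCAGF8 vault from the control vault was -0.37 (SE 0.18, 95% interval -0.77 to 0.02, adjusted p = 0.829, limma), and that of the base from the control vault was -0.34 (SE 0.18, adjusted p = 0.50). Neither passed the threshold.

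Stt3b (ENSMUSG00000032437, chromosome 9 from 115242581 to 115310421, minus strand) varied least of the 10 subunits, with 66.6 FPKM in control base replicate 1 as the lowest value and 90.4 in base replicate 2 as the highest. The group means were 80.5 ± 3.69 FPKM in the control vault, 77.0 ± 4.02 in the MCAGF8 vault and 81.0 ± 12.6 in the control base (SD, n = 3 each). The log2 difference in the vault comparison was -0.06 with a 95% interval of -0.43 to 0.31. The ratio of Stt3a to Stt3b within a library was 2.81, 3.03 and 3.36 in the control vault. It was lower in all other libraries, at 2.47, 2.60 and 2.33 in the MCAGF8 vault and 2.45, 2.40 and 2.43 in the base. On the log2 scale the ratio differed by -0.31 between the MCAGF8 vault and the control vault and by -0.34 between the base and the control vault. A two-sided exact permutation test gave p = 0.1 for each (0.15 adjusted over 3 comparisons), the smallest p that 3 against 3 libraries can give. This test was added after the ratios were seen, and groups without overlap must give this p, so it adds no support to the difference. Between the MCAGF8 vault and the base the difference was 0.02 (p = 0.7 in the same exact test).

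Rpn1, Rpn2 and Ddost encode the large subunits shared by both complexes. Ribophorin I, the product of Rpn1, brings certain membrane proteins to the catalytic subunit. Rpn1 (ENSMUSG00000030062, chromosome 6 from 88084482 to 88105304, plus strand) measured 164 to 217 FPKM in the control vault, 125 to 169 in the MCAGF8 vault and 131 to 205 in the base, with overlap between all groups. Its log2 difference in the vault comparison was -0.40 (SE 0.22, adjusted p = 0.943, limma).

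Rpn2 (ENSMUSG00000027642, chromosome 2 from 157279017 to 157326319, plus strand) measured 272, 265 and 345 FPKM in the control vault, 226, 287 and 252 in the MCAGF8 vault and 177, 200 and 233 in the control base. The base lay below the control vault without overlap and met the MCAGF8 vault at its edge. Ddost (ENSMUSG00000028757, chromosome 4 from 138304730 to 138312628, plus strand), which encodes the subunit OST48, measured 281, 278 and 358 FPKM in the control vault, 211, 314 and 220 in the MCAGF8 vault and 174, 177 and 240.1 in the base. It showed the same order of groups as Rpn2. In the base against the control vault the log2 difference was -0.53 for Rpn2 (SE 0.20, adjusted p = 0.267, limma) and -0.64 for Ddost (SE 0.23, adjusted p = 0.249). In the vault comparison it was -0.20 for Rpn2 and -0.31 for Ddost, with 95% intervals of -0.64 to 0.24 and -0.83 to 0.20.

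Tusc3 and Magt1 encode alternative oxidoreductase subunits of the STT3B complex, which act on disulphide bonds near the glycosylation site. Their proteins are identical at 65.1% of 347 aligned positions, and both carry a pair of cysteines separated by 2 residues, at 99 to 102 in TUSC3 and 120 to 123 in MAGT1. The coding stretches are shown to place this redox motif, with its codons in capitals.
Tusc3: cagcggcagTGTTCTGTGTGCaggcaggct
Magt1: catagacaaTGTGTCGTTTGCaagcaagct

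Tusc3 (ENSMUSG00000039530, chromosome 8 from 39005845 to 39165114, plus strand) measured 96.4, 113 and 128 FPKM in the control vault, 81.5, 98.2 and 74.3 in the MCAGF8 vault and 152, 75.8 and 157 in the base. Magt1 (ENSMUSG00000031232, chromosome X from 105968084 to 106011906, minus strand) measured 59.6, 59.3 and 49.7 FPKM in the control vault, 55.1, 41.1 and 73.6 in the MCAGF8 vault and 38.1, 81.9 and 34.4 in the base. These genes ran in opposite directions within each of the 3 groups: where Tusc3 was highest within a group Magt1 was lowest, and the reverse. The Tusc3 transcript has 1511 bases and that of Magt1 4115, and libraries differed in how FPKM ran with transcript length (described below). The ratio of Tusc3 to Magt1 was 3.98, 0.925 and 4.55 in base replicates 1, 2 and 3, 1.62 to 2.58 in the control vault and 1.01 to 2.39 in the MCAGF8 vault. In both vault groups the ratio was highest in the library with the lowest slope on length and lowest in that with the highest. Base replicate 2, with the highest slope, had the lowest ratio of the base, but replicate 3 rather than replicate 1 had the highest. The part of the length trend in this opposition was not tested. The log2 differences in the vault comparison were -0.40 for Tusc3 (SE 0.28, adjusted p = 0.969, limma) and -0.02 for Magt1 (SE 0.33, adjusted p = 1.00), and the mean FPKM of Magt1 was 0.724% higher in the MCAGF8 vault. Against the base, Tusc3 was at -0.53 (adjusted p = 0.336), and at -0.87 without control base replicate 2 (adjusted p = 0.0178). Magt1 shares a stretch of up to 204 bases, at most 4.96% of its transcript, with transcripts of 189 other genes at an identity of at least 90%.

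The short subunits have short transcripts, and the libraries differed in how FPKM ran with transcript length. Among tested genes divided into 10 equal bins by length, the median log2 difference in the vault comparison went from -0.18 in the shortest bin (65 to 552 bases) to 0.12 in the longest (5612 bases and more). Against the base it went from -0.46 to 0.13, and between the control tissues from 0.26 to -0.02. Ost4 and Dad1 belonged to bin 2 (553 to 961 bases) and Ostc to bin 3 (962 to 1399 bases). In the vault comparison the median of bin 2 was -0.16 and that of bin 3 was -0.10, so Ost4 lay 0.58 and Ostc 0.68 below the genes of their own length and Dad1 0.25 below. The long subunits lay below their own bin as well, Stt3a by 0.49, Rpn1 by 0.46, Tusc3 by 0.34, Ddost by 0.29, Rpn2 by 0.22, Stt3b by 0.16 and Magt1 by 0.09. Within its bin, Ostc was at the 3.76th percentile of log2 differences, Ost4 at the 4.53th, Stt3a at the 6.19th and Rpn1 at the 7.06th.

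**Figure D2:**
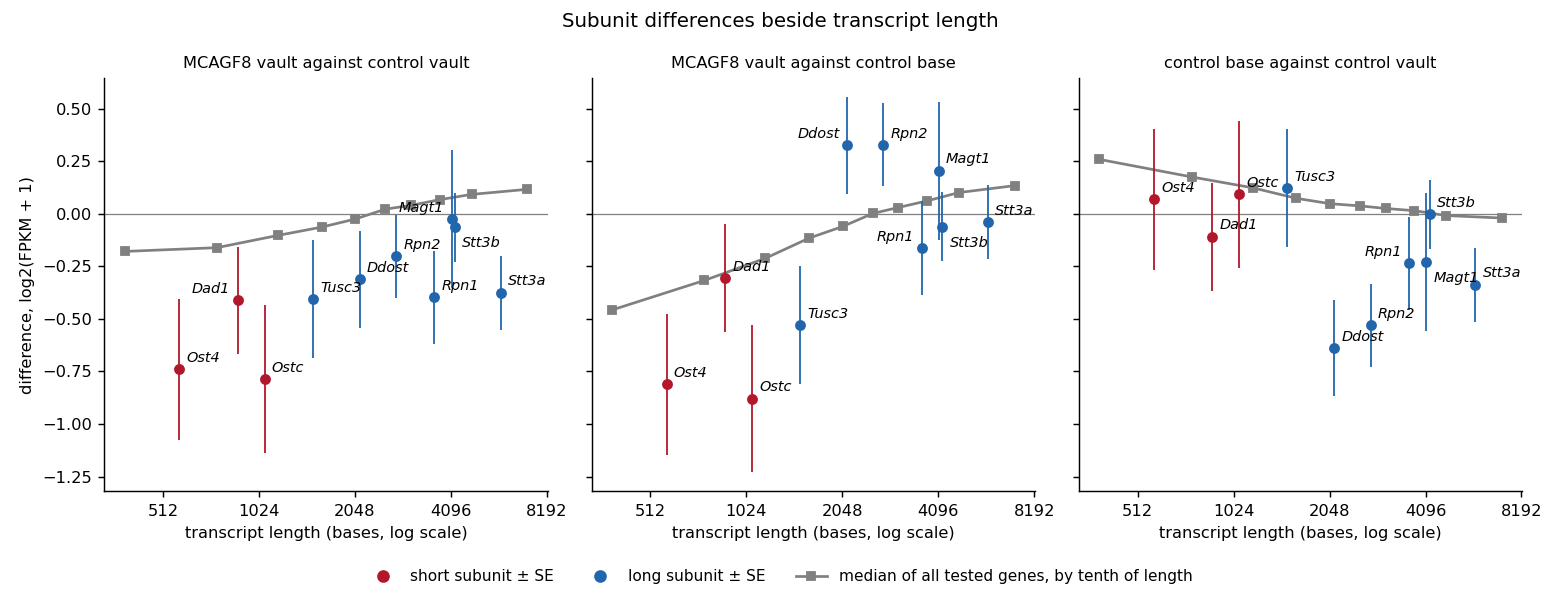
Log2 difference of each subunit, with its standard error, against transcript length on a log scale, in the 3 comparisons. Red points are short and blue points long subunits, and grey squares are the medians of all tested genes in 10 bins of transcript length. In the left panel the grey line rises from -0.18 to 0.12 and all 10 subunits lie below it. In the middle panel Ddost, Rpn2 and Magt1 lie above it and Dad1 lies on it.

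Against the base the median of bin 2 was -0.32 and that of bin 3 was -0.21. Dad1, at -0.30, lay 0.01 above the median of genes of its length, while Ost4 lay 0.49 and Ostc 0.67 below theirs. Rpn2 and Ddost lay 0.33 and 0.39 above the genes of their length. Between the control tissues the short subunits, at 0.07, 0.09 and -0.11 for Ost4, Ostc and Dad1, lay below the median of their bins (0.18 for Ost4 and Dad1 and 0.12 for Ostc). Rpn2 lay 0.57 and Ddost 0.69 below genes of their length.

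The slope of log2(FPKM + 1) on the log2 of transcript length, centred over the libraries, was taken as a measure of this trend. It was 0.07, -0.01 and -0.07 per doubling of length in control vault replicates 1, 2 and 3, 0.10, -0.02 and 0.11 in the MCAGF8 vault, and -0.26, 0.11 and -0.03 in the control base. The 3 libraries with the highest slope, MCAGF8 replicates 1 and 3 and base replicate 2, held the 3 lowest values of Ost4 and of Dad1, and for Ostc 2 of its 3 lowest. Base replicate 1, with the lowest slope, held the highest Ost4 and Ostc. It also held the most skeletal muscle marker signal, 11800 FPKM against 1816 and 4890 in base replicates 2 and 3, whose part in these values was not tested. The median of the short subunits minus that of the long ones, each centred on its own mean over the 9 libraries, was -0.04, -0.01 and 0.14 in the control vault. It was -0.50, -0.18 and -0.47 in the MCAGF8 vault and 1.35, -0.06 and 0.17 in the base. The MCAGF8 libraries were lower than all others by this measure, and the part of the length trend in it was not tested.

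**Figure D3:**
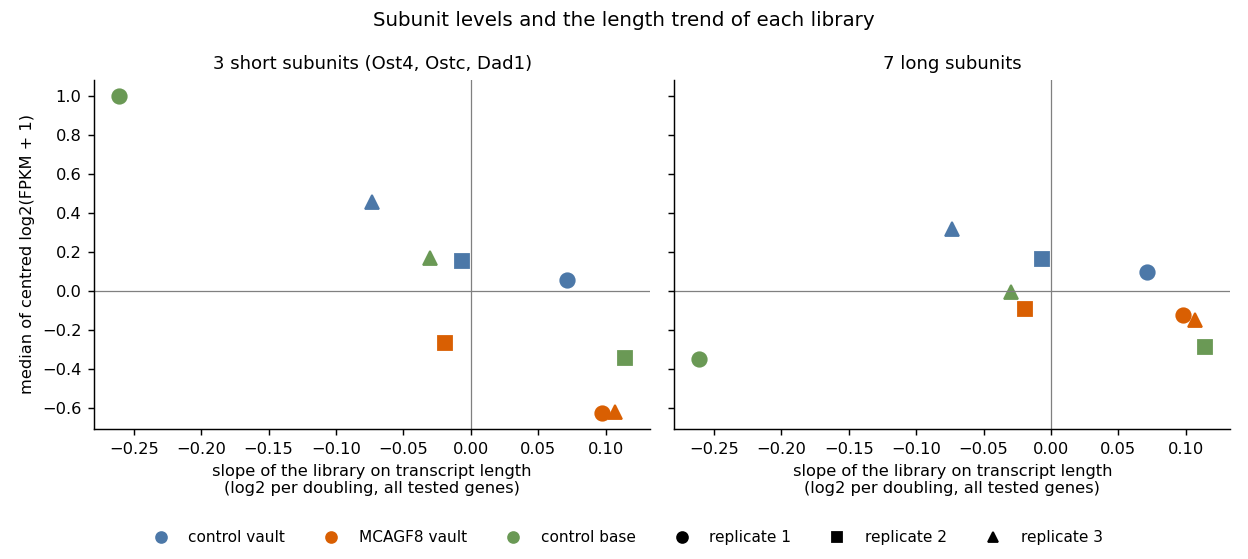
Median of the centred log2(FPKM + 1) of the 3 short subunits (left) and the 7 long subunits (right) against the slope of each library on transcript length. Each point is 1 library, colors are groups and symbols are replicates. The short subunits run from 1.00 at a slope of -0.26 in control base replicate 1 to -0.63 at a slope of 0.10 in MCAGF8 replicate 1, and the long subunits lie between -0.35 and 0.32.

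When a loess trend on transcript length and GC content was removed from each library, the differences of the short subunits became smaller in both comparisons with the MCAGF8 vault. In the vault comparison Ost4 was at -0.54 (SE 0.16, adjusted p = 0.281, limma) and Ostc at -0.63 (SE 0.23, adjusted p = 0.417). Dad1 was at -0.22, Rpn1 at -0.45 and Stt3a at -0.45, all 10 lay below 0 (9 with exon union lengths, where Magt1 was above), and 0 were called beside 0.964% of all genes. The median was -0.54 for the short and -0.28 for the long subunits. With the length slope of each library as a covariate in place of this, Ost4 was at -0.50 (adjusted p = 0.227), Ostc at -0.55 (adjusted p = 0.179) and Stt3a at -0.42 (adjusted p = 0.337). Again 0 subunits were called, beside 89 of all 18714 genes tested.

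Against the base the removal of the trend brought Ost4 to -0.39, Ostc to -0.50 and Dad1 to 0.05, and 0 of 10 were called beside 15.2% of all genes. Between the control tissues it brought Rpn2 to -0.58 (SE 0.13, adjusted p = 0.0469, limma) and Ddost to -0.72 (SE 0.15, adjusted p = 0.0290), so that these 2 subunits of 10 were called lower in the base, beside 8.61% of all genes. The other 8 were also below 0 there, Ost4 at -0.14 and Ostc at -0.13. With the exon union of each gene as its length, an alternative added after the data were seen, Rpn2 and Ddost were called again (2 of 10, beside 8.78%) while Tusc3 was above 0, and Ddost was also called higher in the MCAGF8 vault than in the base (0.54, adjusted p = 0.0595, 1 of 10 beside 15.9%). Quantile normalization called Ost4 and Ostc lower in the MCAGF8 vault than in the base (-0.62 and -0.64, adjusted p = 0.0796 and 0.0679, 2 of 10 beside 10.5%). Without control base replicate 2, which had the highest sum of chondrocyte markers, Ost4, Ostc and Tusc3 were called lower than in the base, 3 of 10 beside 24.5% of all genes.

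**Figure D4:**
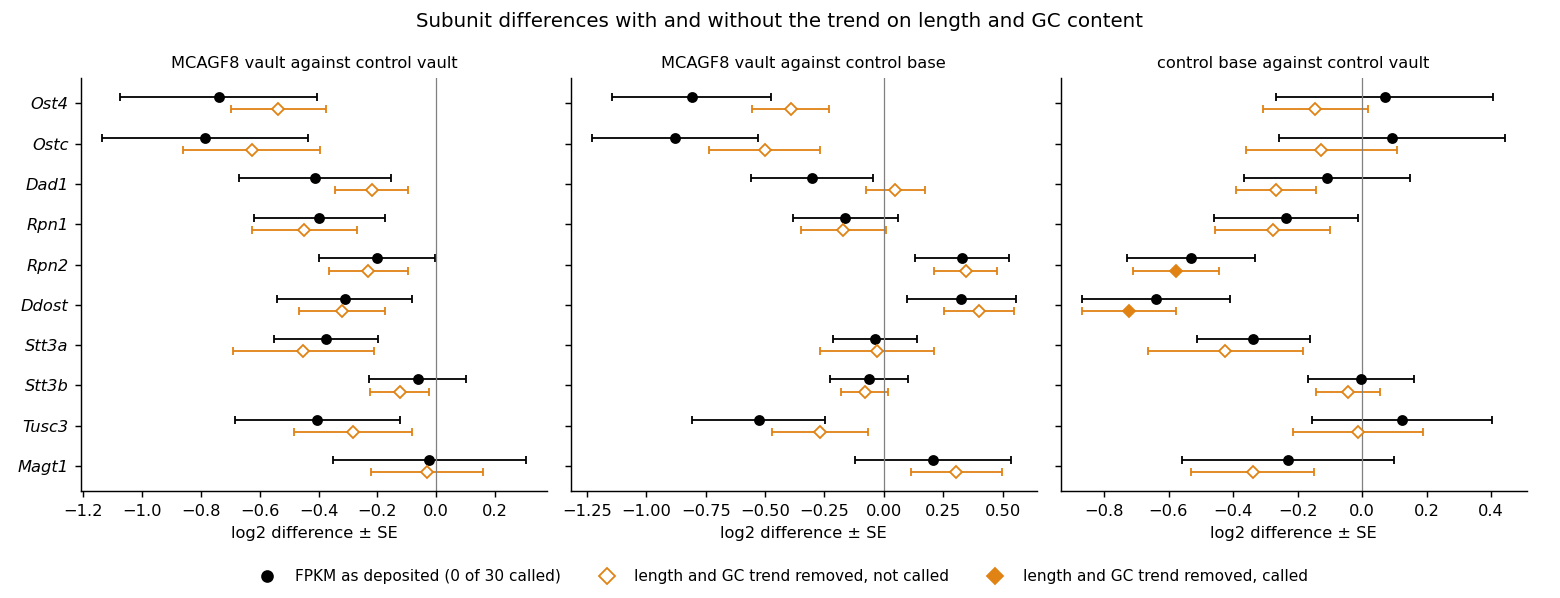
Log2 difference of each subunit, with its standard error, from the deposited FPKM (black circles) and after removal of the trend on length and GC content (orange diamonds, filled where called). Columns are the 3 comparisons. Ost4 moves from -0.74 to -0.54 in the vault comparison and from -0.81 to -0.39 against the base, and only Rpn2 and Ddost between the control tissues have filled diamonds.

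Other genes of the pathway were counted in lists chosen for their role, with earlier results of these data known. Tmem258 and Krtcap2, further small OST subunits with transcripts of 606 and 1172 bases, were lower in every MCAGF8 library than in every control vault library. Tmem258 measured 216 ± 46.9 FPKM in the MCAGF8 vault and 370.1 ± 62.5 in the control vault, and Krtcap2 196 ± 33.7 and 284 ± 46.8 (SD, n = 3 each). The log2 differences were -0.78 and -0.54 and neither was called (adjusted p = 0.899 and 0.852, limma). Against the base they were -0.74 and -0.29, and between the control tissues -0.04 and -0.25.

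Of 31 genes that assemble the dolichol-linked oligosaccharide, the donor substrate of OST, 24 were lower in the MCAGF8 vault than in the control vault, with a median of -0.11 and 0 called, but 12 were lower after rescaling to a common sum (median 0.06). The largest differences were those of Dpm3, a subunit of dolichol-phosphate mannose synthase (-0.79), and Alg5, which makes dolichol-phosphate glucose (-0.58). Of 16 genes for glycan trimming and glycoprotein folding 12 were lower, with a median of -0.08 and 0 called, but 5 were lower after the same rescaling (median 0.09). Their largest differences were -0.23 for Ngly1, which removes N-glycans from misfolded proteins, and -0.19 for the cargo lectin Lman2.

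Among 23 genes of the ER translocon and signal peptide processing, 20 were lower in the MCAGF8 vault, 11 of them without overlap, with a median of -0.30 (-0.13 after rescaling to a common sum) and 0 called. Ssr4 (-0.81) and Ssr2 (-0.74), subunits of the translocon-associated protein complex, had the largest differences. Of 16 ER chaperones and genes of the unfolded protein response 13 were lower, 5 without overlap, with a median of -0.24 (-0.07 after that rescaling) and 0 called, led by Sdf2l1, a partner of ER chaperones (-0.73), and Manf, a secreted factor induced by ER stress (-0.65). With the trend removed, Sdf2l1 was called lower (-0.58, adjusted p = 0.0867, limma), beside 0.964% of all genes. These shares stand beside 51.5% of all genes below 0 and 9.35% lower without overlap.

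Short transcripts outside the pathway served as comparators. Of 54 cytosolic ribosomal protein genes, 52 lay below 0 (median -0.40), and of 34 respiratory chain genes 34 did (median -0.54), with 0 called in either list. The median of the short OST subunits (-0.74), which is the value of Ost4, lay below both. As the study had singled out Ost4 on these samples, this order is not independent evidence. The value of Dad1 (-0.41) was close to the median of the ribosomal genes. The largest differences were -2.15 for Rpl28 and -0.78 for Rps24, and -0.83 for Uqcr11 and -0.76 for Uqcrq, subunits of complex III. With the trend removed, the medians were -0.22 for the ribosomal and -0.37 for the respiratory chain genes, against -0.54 for the short OST subunits. No test was made of these differences between lists.

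**Figure D5:**
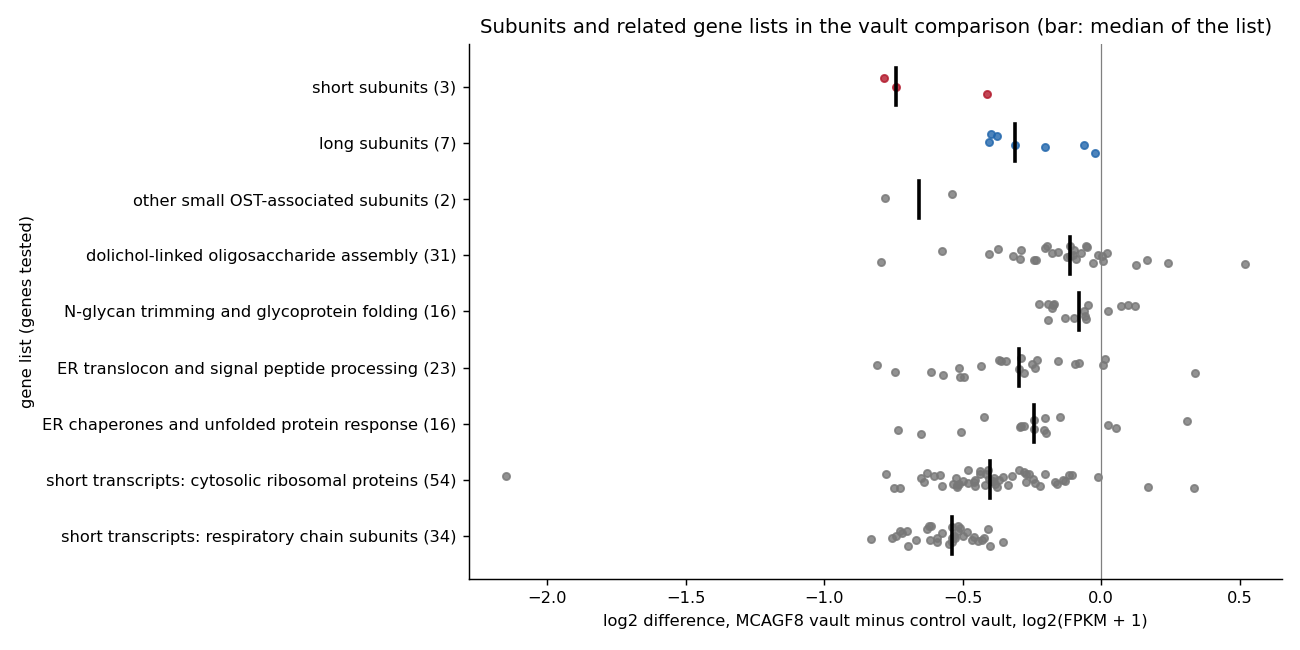
Log2 difference between the MCAGF8 vault and the control vault for each gene of the OST subunits and of 7 other lists. Each point is 1 gene, the vertical bar is the median of the list, and the number of genes is in brackets. The medians of the short subunits (-0.74), the other small OST subunits (-0.66) and the respiratory chain (-0.54) lie lowest, and those of dolichol-linked oligosaccharide assembly (-0.11) and glycan trimming (-0.08) nearest to 0, these last being above 0 after rescaling to a common sum.

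Against the base, 1 of the 88 genes of the 5 pathway lists was called, beside 8.39% of all genes. It was Sec11c, a catalytic subunit of the signal peptidase. It measured 24.9, 27.3 and 27.1 FPKM in the MCAGF8 vault and 61.3, 36.1 and 43.6 in the base, a log2 difference of -0.77 (SE 0.20, adjusted p = 0.0621, limma). The call was lost in 7 of 9 fits without 1 library, those without any MCAGF8 vault or control vault library or without base replicate 3 (adjusted p 0.103 to 0.223). With the trend removed it was -0.37 (adjusted p = 0.103), and over 23 alternative fits the adjusted p ran from 0.0133 to 0.223. Next to it in the list stood Spcs1 of the same enzyme (-0.92) and the translocon subunit Sec61g (-0.90), with 16 of 23 genes lower and a median of -0.21, which was -0.03 with the trend removed and within 0.01 of 0 after rescaling to a common sum (12 of 23 lower). For the other lists the median was -0.07 in oligosaccharide assembly, above 0 under every rescaling (0.01 to 0.13) and with the trend removed (19 of 31 lower, Dpm1 at -0.94 and Dpm3 at -0.79) and -0.23 in ER chaperones (13 of 16 lower, Sdf2l1 at -0.79 and Manf at -0.78), the latter -0.01 after rescaling to a common sum (8 of 16 lower). Glycan trimming and folding genes were higher in the MCAGF8 vault for 14 of 16 genes, with a median of 0.22, Prkcsh at 0.42 and Mcfd2 at 0.32. The counts of this paragraph stand beside 56.3% of all genes lower in the MCAGF8 vault than in the base, and 40.4% after rescaling to a common sum. With the trend removed, 4 genes of the pathway lists were called in place of Sec11c, beside 15.2% of all genes: Pgm3 (0.54), Prkcsh (0.52) and Mcfd2 (0.69) higher and Sdf2l1 (-0.50) lower in the MCAGF8 vault. The ribosomal genes had a median of -0.53 (52 of 54 lower, Rpl30 at -1.16 and Rps24 at -1.05) and the respiratory chain genes of -0.82 (34 of 34 lower, Ndufa4 at -1.30 and Cox7a2 at -1.17), close to the -0.81 of the short OST subunits.

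In the base against the control vault Pgm3, which makes a precursor of UDP-N-acetylglucosamine, was called, 1 of the 88 genes of these lists beside 3.06% of all genes. It measured 38.2, 39.3 and 36.4 FPKM in the base and 52.3, 59.2 and 63.4 in the control vault, a log2 difference of -0.60 (SE 0.15, adjusted p = 0.0939, limma). The call was lost in 7 of 9 fits without 1 library, again those without any library of either vault or without base replicate 3 (adjusted p 0.124 to 0.354), and over 23 alternative fits the adjusted p ran from 0.0213 to 0.354. With the trend removed, Pgm3 (-0.70), Prkcsh (-0.59), Mcfd2 (-0.66), the translocon channel subunit Sec61a1 (-0.48) and Ssr2 (-0.57) were called lower in the base, 5 genes beside 8.61% of all. All 16 glycan trimming and folding genes were lower in the base, beside 41.0% of all genes, and 4 of 16 without overlap, beside 6.69%, with a median of -0.25, beside -0.24 for the long OST subunits and 0.07 for all genes. Lman1 (-0.50) and Mcfd2 (-0.49), a receptor pair that carries glycoproteins out of the ER, had the largest differences. The medians were -0.02 in oligosaccharide assembly (Dpm1 at 0.54), -0.02 in the translocon list (Sec11c at 0.48, Ssr1 at -0.46) and -0.01 in ER chaperones, 0.01 after quantile normalization (Dnajc3 at -0.41, Ddit3 at 0.19). They were 0.11 in the ribosomal list, -0.09 with the trend removed (Rpl28 at -1.62, Rpl30 at 1.33) and 0.25 in the respiratory chain (Cox7c at 0.65, Ndufa4 at 0.57).

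By group mean Dad1, Rpn1, Rpn2, Ddost and Stt3a were highest in the control vault, as the osteoblast marker sums were, and the part of these cells in the levels was not tested. Of the marker lists 1 of 7 osteoblast, 1 of 5 erythroid, 3 of 5 macrophage and 3 of 5 endothelial markers were called higher and 2 of 7 osteoblast, 6 of 6 muscle and 3 of 4 neuron markers lower in the MCAGF8 vault than in the base, beside 8.39% of all genes. In the base against the control vault 1 of 4 neuron markers was called higher, and 2 of 7 osteoblast, 2 of 5 macrophage and 1 of 5 endothelial markers were called lower, beside 3.06%. The macrophage sums ran from 166 to 215 FPKM in the control vault, 167 to 277 in the MCAGF8 vault and 78.8 to 185 in the base, the endothelial sums from 220 to 258, 256 to 353 and 179 to 200, and the neuron sums from 20.5 to 59.4, 33.7 to 73.5 and 137 to 527.

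Likeness of pattern was measured as Pearson's r over the 9 libraries with the mean of the centred subunits, among 12924 other genes averaging 5 FPKM or more, and is given as a description. Libraries share the length trend, which enters these values. Closest to the short subunits were Manf (0.99), Ssr4 (0.99), Actg2 (0.99), Alg5 (0.99) and Gng5 (0.99), with transcripts of 593 to 2247 bases. The long subunits were followed most closely by Kif20a (0.96), the pseudogene Gm16465 (0.92), the KDEL receptor Kdelr3 (0.92), the UDP-galactose transporter Slc35a2 (0.92) and Elmo1 (0.92). Among the 45 pairs of subunits, Ost4 with Ostc (0.98) and Rpn2 with Ddost (0.96) were most alike, and Tusc3 with Magt1 were most opposed (-0.84). Tusc3, long by protein size, had an r of 0.926 with Ost4, 0.885 with Dad1 and 0.837 with Ostc. Its highest r with a long subunit was 0.722, with Rpn1.

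Promoters of 8 subunits, all but Ostc and Tusc3, were found in RefSeq on GRCm38.p6. They gave 9 windows from 250 bases before to 50 bases after a start, 2 of them for Rpn2. They were searched on both strands for motifs of the unfolded protein response, which raises many ER genes. The ER stress response element, CCAAT and CCACG with 9 bases between them, was in 0 of 9 windows, as in 0.119% of 32851 mouse promoters, and the element TGACGTGG in 0 of 9, as in 0.676%. The pentamer CCAAT, which is also the start of the first element, was in 7 of 9 windows, all but those of Ost4 and the second of Rpn2, and in 37.4% of all promoters. A match of letters is no evidence of binding, and a missing one says nothing of the factor.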

How the data were processed

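RNAseq of 9 pooled libraries was analysed (E14.5, 3 tissue samples per pool). Libraries were made by the authors from mRNA with a kit that marks strand, read from 1 end and mapped by gSNAP. Cufflinks then gave the deposited values, FPKM for each Ensembl identifier, and ANOVA in R compared the groups. Genome build, annotation and versions: not given in the sources used here. Differences in transcript composition and in the length trend between libraries enter FPKM directly.

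Of 43611 rows, the 63 that repeated an identifier were summed, and 9 genes with 17 placeholder cells were left out. There were 0 subunits among either. log2(FPKM + 1) of 18714 genes averaging 0.5 FPKM or more was fitted with limma 3.58.1 in R 4.3.3 (1 mean per group over 9 libraries, eBayes with trend, two-sided). The fit was run on simulated data with independent noise for each gene. The simulation had no length trend shared by genes, so it does not check the fit under the trend seen here. Lengths and GC content came from 1 transcript per gene in GENCODE M21 (longest coding sequence), matched for 42470 identifiers, and the loess had span 0.5 and degree 2. The length trend covers 18568 genes. Sequences came from GENCODE and RefSeq, identities from global alignment with Biopython 1.88 and shared stretches of at least 150 bases from blastn 2.17.0. Tables were made in pandas 2.3.3 with numpy 2.4.6 (Python 3.11.15) and plots in matplotlib 3.10.9.

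The number of reads is not given and FPKM do not return it, so no counting interval is given and precision is measured by the spread between pools. The subunits, 7 gene lists and 8 marker lists were chosen with earlier results of these data known. Named genes were the 10 subunits, in each list and comparison the called members (up to 3 each way) or, with fewer than 2, also the 2 with the largest difference, and the 5 genes most like each group of subunits. Agbl5 and the list genes called with the trend removed (Sec61a1 among them) were named after their values were seen, and the test of the Stt3a to Stt3b ratio was added then. Alternatives were other pseudocounts, filters, scalings, thresholds and models, the replicate number as a block, and each library left out.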

Additional observations from a re-analysis of the deposited data

How the results depend on the processing

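Of 750 log2 differences of subunits under 25 alternative settings, 736 kept their side of the threshold, 14 passed it in the same direction (none was called before, so none could be lost), and 44 that were not called changed sign. In the vault comparison 0 subunits were called under any of the 25. Counts of called genes moved far more. In the vault comparison 113 genes became 264 with the 6 libraries of both groups, 179 with the trend on length and GC removed (193 with exon union length), 71 at a mean FPKM of at least 5, 66 without a filter, 0 with the per-gene linear model, 192 and 191 with pseudocounts of 0.01 and 0.1, 35 at an adjusted p under 0.05 and 1186 at an unadjusted p under 0.05 alone, and 11 to 273 with 1 library left out. Against the base 1571 became 904 with both groups only, 2814 and 2950 with the trend removed, 834 at a mean of at least 5, 869 with the per-gene model, 941 and 3675 at the other thresholds, and 587 to 4561 with 1 library left out, the highest without control base replicate 2. Between the control tissues 573 became 139, 1598 and 1630, 291, 257, 255 and 2396 in the same order, 1382 with the slope as covariate, and 130 to 1335 with 1 library left out. The cause was not tested.

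Against the base 1 subunit was called with the trend removed by exon union length, 2 after quantile normalization, 2 at an unadjusted p under 0.05 alone and 0 to 3 with 1 library left out. Between the control tissues 2 were called with the trend removed by either length and 2 at the unadjusted threshold. The short minus the long median, -0.43 in the vault comparison, was -0.26 with the trend removed (-0.255 before rounding) and -0.26 with the slope as covariate, and -0.49 to -0.43 with 1 library left out. Against the base it was -0.77, with a range of -1.24 without control base replicate 2 to -0.29 without replicate 1, -0.36 with the trend removed and -0.25 with the slope as covariate. Between the control tissues it was 0.31, 0.83 without base replicate 2, -0.11 without base replicate 1, 0.19 with the trend removed and 0.15 with the slope as covariate. The replicate number as a block, which pairs nothing in the labels, left 19, 918 and 234 called genes in the 3 comparisons and 0 subunits. Deviations of libraries with the same number correlated from -0.55 to 0.37. The number of reads behind a value is unknown, so the spread between pools is the sole measure of error.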
